A study of Danio rerio with 1152 samples.

Results

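Nuclear genes of mitochondrial respiration were described cell by cell in zebrafish (Danio rerio) at 50% epiboly, the stage at which the cell cap covers the upper part of the yolk. The members were all rows of the count table whose symbol begins with NDUF, UQCR, COX4, COX5, COX6, COX7, COX8, ATP5, SDHA, SDHB, SDHC or SDHD, which gave 80 of 13902 genes. All cells came from embryos of TL/AB in-crosses that were raised at either of 2 temperatures, and the labels name no treatment or mutation. They do not say which temperature a cell's embryo had. Caps were freed from the yolk, dissociated, and single cells were picked by hand into 1152 wells in 3 experimental batches of equal size. The libraries counted transcript 5′ ends with a random molecular tag, so that a unique molecular identifier (UMI) count stands for molecules and does not grow with transcript length. Of the wells, 1000 had 2000 or more detected genes and were kept, which was 90.4, 77.1 and 92.97% of the wells of batches 1, 2 and 3.

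Oxidative phosphorylation joins 4 electron-transferring complexes of the inner mitochondrial membrane to ATP synthase. Complex I takes electrons from NADH and complex II from succinate, complex III passes them to cytochrome c, and complex IV hands them to oxygen. The proton gradient that results drives complex V, the ATP synthase. A small set of core subunits is encoded by mitochondrial DNA, and the genes described here are the nuclear ones. The early zebrafish embryo inherits its mitochondria and a large store of maternal transcripts from the egg. None of the 14 symbols searched for genes of mitochondrial DNA was matched, so the nuclear and mitochondrial subunits could not be set side by side.

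The kept wells held 5307 to 132749 UMIs, with medians of 57293, 55922.5 and 35746 in batches 1, 2 and 3. A pair of wells, in batches 1 and 2, differed by less than the sampling noise (chi-square per degree of freedom 0.500, next lowest 1.09), and the tests were also run without it. The highest count of a member in a cell was 18.8% of the possible tags. Replicates are the 3 batches, and the sources used here do not say how many embryos each held. In classes of cells, markers were set against the class names (edgeR's quasi-likelihood test, adjusted p under 0.05). All 10 tested margin markers were higher in cells with TA transcripts, and all 11 were lower in cells rich in SOX3. Of the animal ectoderm markers, 3 of 8 tested were lower in cells with TA transcripts, and 5 were not called. In cells rich in SOX3, 5 of 7 tested were higher and 2 were not called. Of 14 matched enveloping layer markers 9 were tested, and 6 of these were higher in keratin-rich cells. AGR2, ICN and KRT15 of that list had no UMI in keratin-rich cells of some batches where the other cells had some. Of 8 tested animal ectoderm markers, 2, GATA3 and TFAP2A, were also higher in keratin-rich cells.

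The 80 genes comprised 31 for subunits of complex I, 5 of complex II, 8 of complex III, 15 of complex IV and 14 of complex V, with gene copies counted apart. They also included 6 assembly factors (NDUFAF1, NDUFAF2, NDUFAF3, NDUFAF5, NDUFAF7 and SDHAF2) and ATP5S, an older symbol of dmac2l. Together they took 1.10% of all UMIs in the kept cells. Their median level was 0.699 UMIs per 10000, against 0.0803 for the median of all genes, and 74 of the 80 were above that median gene. Of the members, 30 were above 1 UMI per 10000, 6 were above 5, and 16 ranked among the 1000 highest genes of the table.

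**Figure D1:**
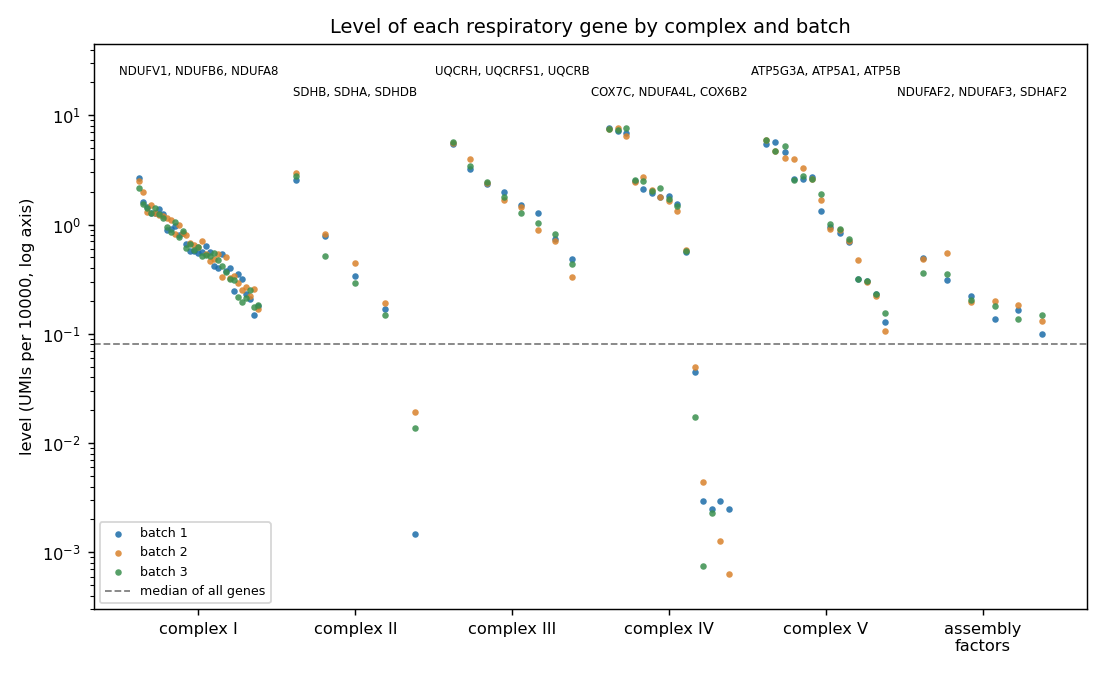
Level of each respiratory gene in UMIs per 10000 (log axis), as the ratio of sums over the kept cells of a batch, ordered within each complex from high to low; each point is 1 batch, ATP5S is left out, and a batch with no UMI has no point. COX7C, NDUFA4L and COX6B2 of complex IV lie highest, near 7 to 7.5, and SDHDA, NDUFA4 and 4 isoforms of complex IV fall below the dashed median of all genes.

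Complex IV, cytochrome c oxidase, had the highest summed level, at 33.999, 34.2 and 35.6 UMIs per 10000 in batches 1, 2 and 3 (34.6 ± 0.901, SD, n = 3). Complex V followed at 28.5, 29.9 and 29.4 (29.3 ± 0.736), and complex I, with the most subunits, at 23.3, 24.3 and 22.5 (23.4 ± 0.914). Complex III stood at 17.1, 17.04 and 16.9 (17.02 ± 0.105) and complex II at 3.86, 4.42 and 3.73 (4.00 ± 0.366). The order of the 5 complexes was the same in every batch and their ranges did not overlap. It rests on counting NDUFA4L, at 7.12, 7.58 and 7.36, with complex IV, as described below. Without that gene, complex IV would stand below complex V in each batch. Counted with complex I, as its name has it, NDUFA4L would make complex I the highest in each batch. Batches are 1 sample each and were not tested against each other. The sums cover only the genes found by the prefixes. Cytochrome c1 of complex III was listed apart, and no row began with COX5B or COX8.

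Within complex IV the 3 highest genes gave 63.3% of its UMIs. COX7C, a small membrane subunit, stood at 7.61, 7.47 and 7.51 UMIs per 10000, NDUFA4L at 7.12, 7.58 and 7.36, and COX6B2 at 6.90, 6.44 and 7.69. Their ranges met, so that the order among the 3 was not the same in all batches. NDUFA4 is named after complex I, but in mammals it is a subunit of complex IV, and its genes were counted there. COX4I1, the form of subunit 4 found in most mammalian tissues, followed at 2.10, 2.75 and 2.52, close to COX7A3 at 2.53, 2.45 and 2.57. COX7A3 is an older symbol of cox7a2l, whose mammalian counterpart joins complexes III and IV into supercomplexes.

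In ATP synthase, the catalytic head and its stalk (ATP5A1, ATP5B, ATP5C1 and ATP5D) summed to 13.1, 13.02 and 12.8 UMIs per 10000. The membrane ring of subunit c (ATP5G1, ATP5G3A and ATP5G3B) summed to 7.10, 7.87 and 8.10. The peripheral stalk had 4.51, 4.33 and 4.50, and 3 genes of small membrane subunits had 3.75, 4.68 and 4.03. The head was above the ring in each batch. The highest single genes were ATP5G3A, a subunit c gene, with a mean of 5.74, ATP5A1, subunit alpha, with 5.04, and ATP5B, subunit beta, with 4.65. Alpha and beta occur in equal number in the enzyme, and their transcripts stood at 5.66 and 4.57 in batch 1, 4.73 and 4.10 in batch 2, and 4.74 and 5.29 in batch 3: alpha was the higher in batches 1 and 2, beta in batch 3. ATP5D, subunit delta of the same head, had a mean of 0.227.

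Complex I was spread over many genes of middling level, and its 3 highest gave 23.8% of its UMIs. NDUFV1, which binds NADH and its flavin, stood at 2.67, 2.48 and 2.18 UMIs per 10000. NDUFB6 and NDUFA8, accessory subunits without redox centres, had means of 1.71 and 1.39. The 8 genes of core subunits in the NADH and quinone modules summed to 7.42 ± 0.341 (SD, n = 3), and the 23 genes of accessory subunits to 15.9 ± 0.674. The members of complex I ranged from 0.177 for NDUFA5 to 2.44 for NDUFV1, a narrower span than in complex IV, where the lowest, COX7A1, had 0.00104.

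Complex III was led by UQCRH, the hinge protein, which binds cytochrome c1, at 5.51, 5.57 and 5.67 UMIs per 10000, by UQCRFS1, the Rieske iron-sulphur protein, at 3.25, 4.02 and 3.45, and by UQCRB, a small subunit, with a mean of 2.39. UQCRH was the highest in each batch. In complex III the 4 genes of small subunits summed to 10.5, and the 3 genes of core proteins with that of the iron-sulphur protein to 6.47. In complex II, SDHB, the iron-sulphur subunit, stood at 2.57, 2.94 and 2.77, above the flavoprotein SDHA at 0.778, 0.817 and 0.511. The membrane anchor SDHDB had a mean of 0.358 and the other anchor, SDHC, 0.168. The 4 kinds of subunit occur once each in the complex. The 6 assembly factors, which build the complexes without remaining in them, lay between 0.127 for NDUFAF5 and 0.448 for NDUFAF2.

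Gene copies whose symbols end in A or B shared their UMIs unequally, to differing degrees. ATP5G3A had 28081 UMIs over the kept cells and its copy ATP5G3B 1485, 18.9 times fewer, and the share of ATP5G3A in the pair was 94.7, 95.2 and 95.1% in batches 1, 2 and 3. ATP5IB, subunit e, exceeded ATP5IA 7.83 times, with 89.05, 87.5 and 89.9% of the pair. Less unequal were UQCRC2B over UQCRC2A, core protein 2 of complex III (75.5, 81.7 and 74.6% of the pair), and NDUFS8A over NDUFS8B, a core iron-sulphur subunit of complex I (79.1, 64.1 and 74.6%). The same member of each of these pairs was the higher in all 3 batches.

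Further pairs of related genes were chosen after their values were seen, and some were less one-sided and others more. ATP5G3A had 80.2, 77.8 and 75.5% of the pair it forms with ATP5G1, also a subunit c gene, and COX7A3 had 62.2, 64.7 and 63.7% of the pair with COX7A2A. COX4I1 had 11922 UMIs and COX4I2, in mammals the form of lung and low oxygen, had 8. COX6A1 had 9858 and COX6A2, in mammals the form of heart and skeletal muscle, 8, and COX7A2A had 7153 against 6 for COX7A1, also a muscle form in mammals. COX6B2, the gene whose mammalian namesake is found in testis, had 34264 against 14 for COX6B1. NDUFA4L (now ndufa4a) had 187.9 times the UMIs of NDUFA4 (now ndufa4b), and SDHDB 1770 against 51 for SDHDA. The 51 UMIs of SDHDA came from 0.7% of the cells, at 7.29 UMIs in each. In the gene table used for names, SDHDA and SDHDB are each also a synonym of the other. Which current gene each of these rows counts is thus not settled. Near-identical copies may share reads, and how the counting assigned these is not given in the sources used here.

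Detection in single cells lagged behind the mean count. COX7C, NDUFA4L and COX6B2 had a UMI in 99.4% of the kept cells each, and 17 of the 80 members had one in at least 80%, while 5 had one in under 1%. The median member was detected in 45.3% of cells, against 10.1% for the median gene. Among the 50 members with a mean of 1 to 10 UMIs per cell, the median share of detecting cells was 44.65%, whereas Poisson counts at each cell's depth would give 91.3%. Other genes in that range behaved much the same (3995 genes, 44.2% against 87.8%). Where such a member was seen, it was seen in numbers, with a median of 7.47 UMIs per detecting cell, against 6.55 for the other genes.

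**Figure D2:**
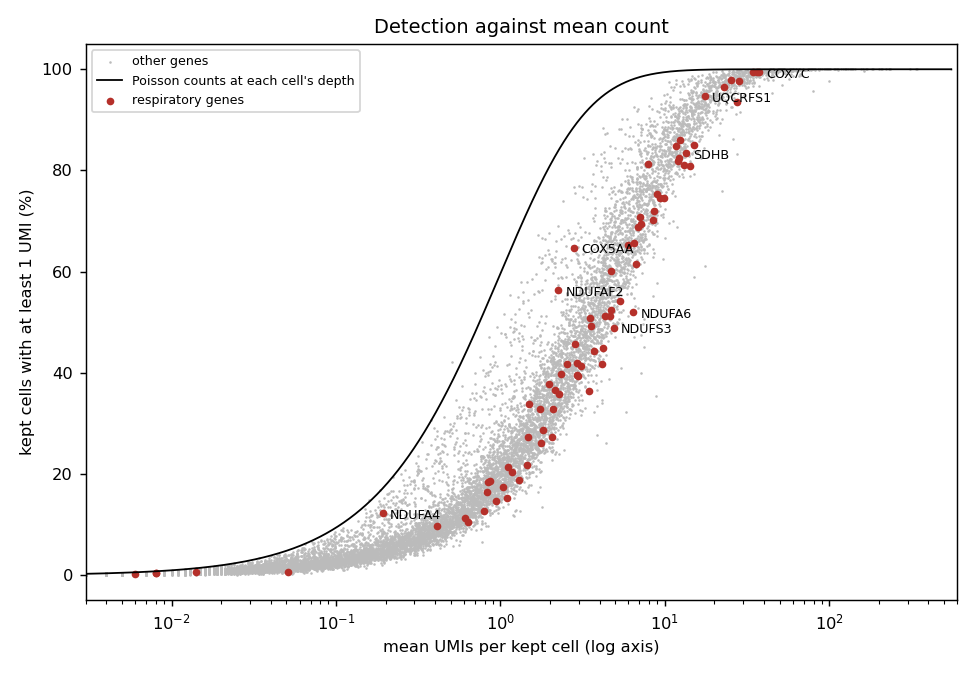
Percent of kept cells with at least 1 UMI against the mean UMIs per kept cell (log axis), for respiratory genes (red) and other genes (grey); the line is what Poisson counts at each cell's depth would give. Most genes lie to the right of the line, and NDUFA6, with the higher mean, is detected in fewer cells than COX5AA.

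The order of members by mean count was not their order by share of detecting cells; the genes named here were chosen after their values were seen. NDUFA6, an accessory subunit of complex I, had a mean of 6.42 UMIs per cell and was detected in 62.2, 41.6 and 50.7% of cells in batches 1, 2 and 3. COX5AA, a complex IV subunit with a mean of 2.82, was detected in 73.8, 61.1 and 58.8%. In each batch the gene with fewer UMIs was thus found in more cells. NDUFAF2, an assembly factor of complex I, had a mean of 2.25 and was detected in 56.3% of all kept cells, where Poisson counts would give 83.96%. NDUFS3, a core subunit of complex I with a mean of 4.88, was detected in 48.9%, where they would give 96.2%.

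Levels were alike between batches. Of the 53 members above 0.5 UMIs per 10000 in a batch, 4 (7.55%) differed more than 1.5-fold between their highest and lowest batch, against 16.1% of the 3642 genes above that level, and the median ratio was 1.19 against 1.25. The 4 were NDUFAF3 (0.312, 0.545 and 0.356 in batches 1, 2 and 3), NDUFV2, a core subunit of complex I (0.533, 0.328 and 0.418), SDHA (0.778, 0.817 and 0.511) and ATP5C1, the rotating stalk of ATP synthase (2.63, 3.97 and 2.53). They shared no direction: batch 2 was the highest for 3 of them and the lowest for NDUFV2.

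Within batch 1, the summed level of the members was 98.3, 99.6, 117.2 and 114.6 UMIs per 10000 on plates 5, 6, 7 and 8, a wider range than between the batches (108.2, 111.6 and 109.7). Without the keratin-rich cells, of which the plates held 12, 17, 1 and 5, the values were 97.5, 100.5, 117.3 and 114.002. Cytosolic ribosomal protein genes stood at 421, 384.2, 458 and 482 on the same plates and proteasome genes at 68.3, 68.1, 80.9 and 79.5. Median UMIs per cell were 49628, 57518, 61142.5 and 65005. Whether depth or another property of the plates bears on the members' level was not tested.

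From cell to cell, the members' share of all UMIs had medians of 1.05, 1.10 and 1.09% in batches 1, 2 and 3. In batch 1 it ran from 0.636 to 1.80%, in batch 2 from 0.483 to 1.68% and in batch 3 from 0.676 to 1.82%. The coefficients of variation were 0.170, 0.221 and 0.154, where Poisson counting error alone would give 0.0448, 0.0482 and 0.0540. Detection of single genes also fell well short of Poisson counts. Technical spread and variation in expression were not separated, so the excess over counting error cannot be read as variation in expression between cells. The share varied about as much as that of cytosolic ribosomal proteins (0.158, 0.199 and 0.174) and less than that of glycolysis genes (0.304, 0.317 and 0.310), which had fewer UMIs. Across the kept cells of a batch the share went with that of ribosomal proteins, with Spearman's rho of 0.44, 0.51 and 0.36, and with that of proteasome genes, with 0.36, 0.57 and 0.29. With mitochondrial ribosomal protein genes rho was 0.21, 0.51 and 0.14, also positive in each batch. With citric acid cycle genes it was 0.03, 0.04 and -0.13, and with glycolysis genes -0.04, 0.06 and 0.02. Cells of a batch share library preparation, the shares of a cell have a common total, and rho between the members' share and total UMIs was 0.25, 0.33 and 0.12, so these values are descriptions.

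Transcripts of TA, the T-box gene no tail of the embryonic margin, were found in 551 of the 1000 kept cells, and these were compared with the cells that had none. Respiratory genes showed no called difference. The members summed to 109.2, 110.01 and 109.2 UMIs per 10000 in TA-positive cells of batches 1, 2 and 3, and to 106.96, 112.9 and 110.7 in TA-negative cells. The TA-positive cells were the higher in batch 1 and the lower in the other two. Of 75 members tested, 0 were higher and 0 were lower at an adjusted p under 0.05 (edgeR's quasi-likelihood test on counts summed per class and batch), where 1.2% of 8299 genes were called higher and 0.265% lower. The 5 untested members, COX4I2, COX6A2, COX6B1, COX7A1 and SDHDA, had a UMI in under 5% of cells. DESeq2 also called 0 members, and 2 had an unadjusted p under 0.05 (2.67%, against 8.24% of all genes).

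The precision was best for the abundant subunits. COX7C stood at 7.755, 7.68 and 7.68 UMIs per 10000 in TA-positive and 7.44, 7.31 and 7.13 in TA-negative cells, and its log2 difference was 0.06 with a 95% interval of -0.06 to 0.18. UQCRH had a log2 difference of -0.02 (-0.16 to 0.12) and SDHB of 0.03 (-0.15 to 0.22). For 51 of the 73 members with an interval, it lay within 1.5-fold in both directions (69.9%, against 43.95% of all genes). Here and in the comparisons below, all genes were not matched to the members in level, so such shares do not show steadier members. The members' median log2 difference was -0.02, against -0.0043 over all genes. A p that misses the threshold does not show equal levels, and the intervals of the low genes stayed wide.

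Among members that differed in the same direction in all 3 batches, SDHAF2, which attaches the flavin to SDHA, had the largest positive log2 difference, at 0.56 (-0.04 to 1.16, adjusted p = 0.655 by edgeR). It stood at 0.224, 0.257 and 0.241 UMIs per 10000 in TA-positive and 0.224, 0.149 and 0.120 in TA-negative cells, and in batch 1 the classes were nearly level. NDUFA4, NDUFA2 and NDUFA7 followed with 0.44, 0.36 and 0.32. At the other end was NDUFB7, an accessory subunit of complex I, at -0.48 (-0.996 to 0.026, adjusted p = 0.641 by edgeR), with 0.204, 0.221 and 0.184 against 0.266, 0.302 and 0.273. NDUFB9, SDHA and ATP5G3B had -0.33, -0.28 and -0.26. Of the tested members, 8 were higher in all 3 batches (10.7%, against 15.99% of all genes) and 6 were lower (8%, against 12.8%). The smallest adjusted p of a member was that of UQCRQ, a small subunit of complex III (0.505 by edgeR, log2 difference -0.25), whose direction differed in 1 of the 3 batches. ATP5IB was the other member with an unadjusted p under 0.05, at -0.19 (-0.36 to -0.01, adjusted p = 0.547 by edgeR). It stood at 2.55, 2.87 and 2.74 against 2.65, 3.66 and 2.93, lower in all 3 batches. TA-positive cells had more UMIs (medians 57802, 56884 and 39168 against 57022, 55073.5 and 31977). With cells matched on detected genes 0 members were called, as without matching. That run did not match on UMIs, and the part of depth was not tested.

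**Figure D3:**
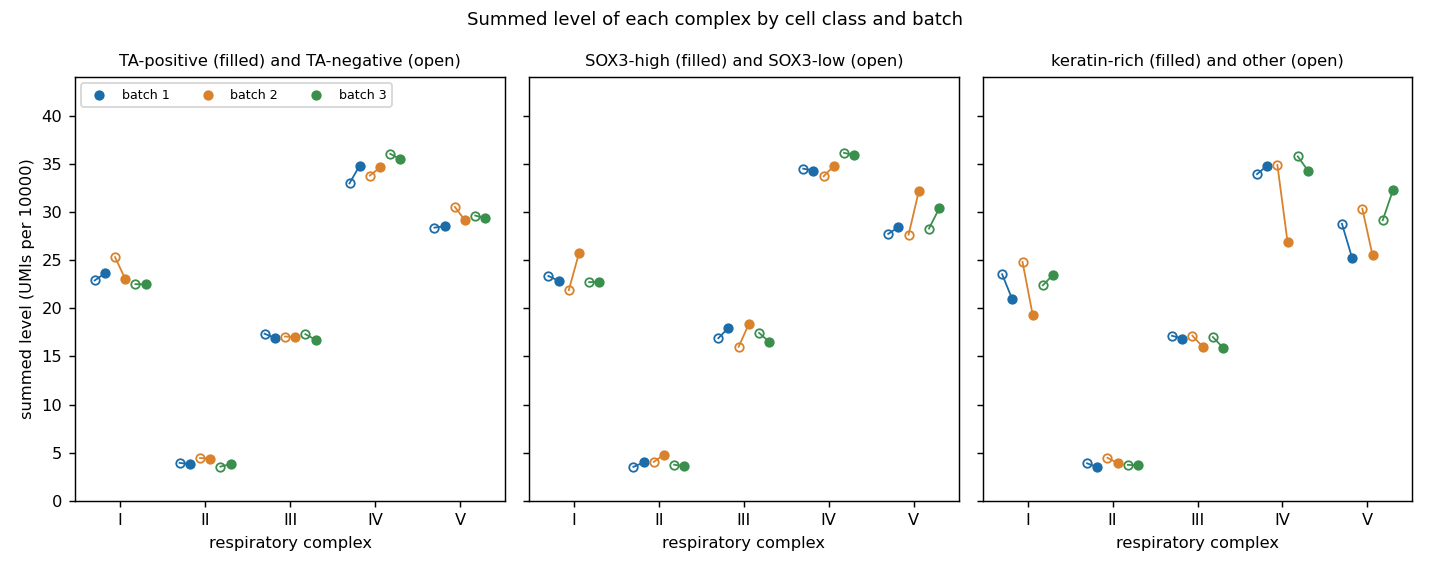
Summed level of each complex in UMIs per 10000 by batch, in 3 comparisons of cell classes; filled points are the first-named class, open points the second, and a line joins the classes of a batch. In the first panel the lines are short and differ in slope, and the longest line is that of complex IV in keratin-rich cells of batch 2, from 34.9 down to 26.9.

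SOX3, a transcription factor gene of the animal, future ectodermal region, split each batch into its highest and lowest 1 in 3 (33.2% of the kept cells in each class). The members summed to 109.1, 117.6 and 110.7 UMIs per 10000 in SOX3-high cells and to 107.5, 105.03 and 109.7 in SOX3-low cells, higher in each batch but by little in batches 1 and 3. Of 75 tested, 0 members were called higher and 0 lower by edgeR, where 0.736% of 8155 genes were higher and 1.86% lower. DESeq2 called 0, and 6 had an unadjusted p under 0.05 (8%, against 9.98% of all genes), 5 of them with higher values in SOX3-high cells. The members' median log2 difference was 0.08, against -0.0014 over all genes, and by batch it was 0.04, 0.14 and -0.04. For 35 of 74 members the 95% interval lay within 1.5-fold (47.3%, against 29.4% of all genes).

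The smallest adjusted p was that of ATP5C1, at 0.256 by edgeR, with a log2 difference of 0.32 (95% interval 0.08 to 0.55). It stood at 3.01, 4.16 and 2.59 UMIs per 10000 in SOX3-high and 2.45, 3.32 and 2.26 in SOX3-low cells, higher in 3 of 3 batches. Of those with the same direction in each batch, the largest positive log2 differences were those of 2 assembly factors of complex I, NDUFAF5 at 0.82 (-0.05 to 1.70) and NDUFAF3 at 0.62 (0.04 to 1.20, adjusted p = 0.448 by edgeR), then NDUFA5 at 0.60 and NDUFB10 at 0.36. NDUFAF3 had 0.329, 0.623 and 0.422 against 0.319, 0.336 and 0.242, a gap that lay mainly in batches 2 and 3. The lowest was NDUFS4, an accessory subunit at the NADH end of complex I, at -0.65 (-1.30 to -0.01, adjusted p = 0.486 by edgeR). It stood at 0.199, 0.186 and 0.199 against 0.272, 0.331 and 0.348, lower in each batch. COX4I1, COX6A1 and NDUFAF2 had -0.15, -0.13 and -0.07.

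In batch 2, where the members' sums differed most, SOX3-high cells had a median of 60528.5 UMIs and SOX3-low cells 44347. In that batch the 7 matched of 12 yolk syncytial layer markers summed to 0.277 in SOX3-high and 2.08 UMIs per 10000 in SOX3-low cells, with APOA1B and APOA2 at 0 in the former and none at 0 in the latter. The ranges over the batches were 0.277 to 0.849 and 0.583 to 2.08. The 7 matched of 10 germ plasm markers, of which 4 were lower in SOX3-high cells, ranged from 2.81 to 3.07 against 4.90 to 11.04. The part of these in the members' values was not tested.

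Keratin-rich cells, the highest 1 in 10 of each batch by KRT4, KRT5, KRT8, KRT18 and CYT1, are the candidates for the enveloping layer, the thin epithelium that covers the embryo; these 10.1% of the kept cells were compared with the others. Respiratory genes summed to 102.9, 93.1 and 111.3 UMIs per 10000 in keratin-rich cells and to 108.7, 113.5 and 109.5 in the others. The keratin-rich cells were lower in batches 1 and 2 and higher in batch 3. In batch 1 they lay unevenly over plates 5, 6, 7 and 8 (12, 17, 1 and 5 cells). The other cells of these plates had 97.5, 100.5, 117.3 and 114.002. The test blocks by batch and not by plate, and the part of the plates in the gap of batch 1 was not tested. Of 75 tested, 0 members were called higher and 0 lower by edgeR, where 1.17% of 8295 genes were higher and 0.0362% lower. DESeq2 called 0, and 5 members, each with lower values, had an unadjusted p under 0.05 (6.67%, against 7.99% of all genes). The median log2 difference was -0.10, against -0.05 over all genes, and 0.02 without batch 2. The intervals were wider than in the other 2 comparisons: 26 of 75 lay within 1.5-fold (34.7%, against 19.04% of all genes). Whether the number of cells bears on this was not tested.

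The smallest adjusted p was that of ATP5IA, the lesser subunit e gene, at 0.390 by edgeR, with a log2 difference of -1.08 (95% interval -1.88 to -0.29). It stood at 0.150, 0.216 and 0.171 UMIs per 10000 in keratin-rich and 0.336, 0.500 and 0.330 in other cells, lower in each batch. Over 16 alternatives its log2 difference ran from -1.33 to -0.46, the value nearest to 0 coming with cells matched on detected genes. NDUFS4 had -1.47 (-2.64 to -0.29, adjusted p = 0.485 by edgeR), with 0.128, 0.0419 and 0.0976 against 0.217, 0.239 and 0.265, also lower in each batch. Few cells carry these values: NDUFS4 had a UMI in 15.3% of all kept cells, and the keratin-rich classes held 35, 30 and 36 cells. Most keratin-rich cells of batch 1 were on plates 5 and 6. Over all kept cells of plates 5, 6, 7 and 8, NDUFS4 stood at 0.119, 0.126, 0.257 and 0.300. ATP5IA stood there at 0.223, 0.167, 0.449 and 0.402. The part of the plates in the batch 1 values of both genes was not tested. Over 15 alternatives the log2 difference of NDUFS4 ran from -1.93 to -0.32, the value nearest to 0 coming with classes from a 2-component mixture. COX5AA, with 0.339, 0.356 and 0.455 against 0.584, 0.604 and 0.592, had -0.61 (-1.21 to -0.01, adjusted p = 0.608 by edgeR), and NDUFAF3 -0.51. Of the tested members, 14 were lower in all 3 batches (18.7%, against 18.7% of all genes) and 4 were higher (5.33%, against 13.2%). The 4 were NDUFS8B at 0.68 (-0.28 to 1.65), ATP5G1 at 0.24, NDUFB4 at 0.22 and ATP5B at 0.19. ATP5IB, the main subunit e gene, had -0.15.

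NDUFA13, an accessory subunit of complex I that was chosen after its values were seen, had a log2 difference of -1.07 (-1.96 to -0.19, adjusted p = 0.503 by edgeR). It stood at 0.122, 0.746 and 0.220 UMIs per 10000 in keratin-rich and 0.601, 0.698 and 0.551 in other cells, far lower in batches 1 and 3 and slightly higher in batch 2. Over all kept cells of plates 5, 6, 7 and 8 of batch 1, it stood at 0.266, 0.405, 0.787 and 0.685. The part of the plates in its batch 1 values was not tested. Without batch 2 it was called lower (log2 difference -1.73, adjusted p = 0.0371 by edgeR). Over its 16 alternatives the adjusted p ran from 0.0371 to 0.902, and 2 of them called it.

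Batch 2 carried most of the gap between the sums. There complex IV stood at 26.9 in keratin-rich and 34.9 UMIs per 10000 in other cells, and complex I at 19.3 and 24.8. The keratin-rich cells of that batch had a median of 42214.5 UMIs, against 56071 in the others. Their yolk syncytial layer markers summed to 3.78, against 0.513, and over the batches to 0.415 to 3.78 in keratin-rich and 0.500 to 0.9747 in other cells, with APOA2 at 0 in the former and APOA1B in the latter in batch 2. The part of these in the members' values was not tested. Of all keratin-rich cells, 67.3% were also TA-positive, against 55.1% of all kept cells.

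**Figure D4:**
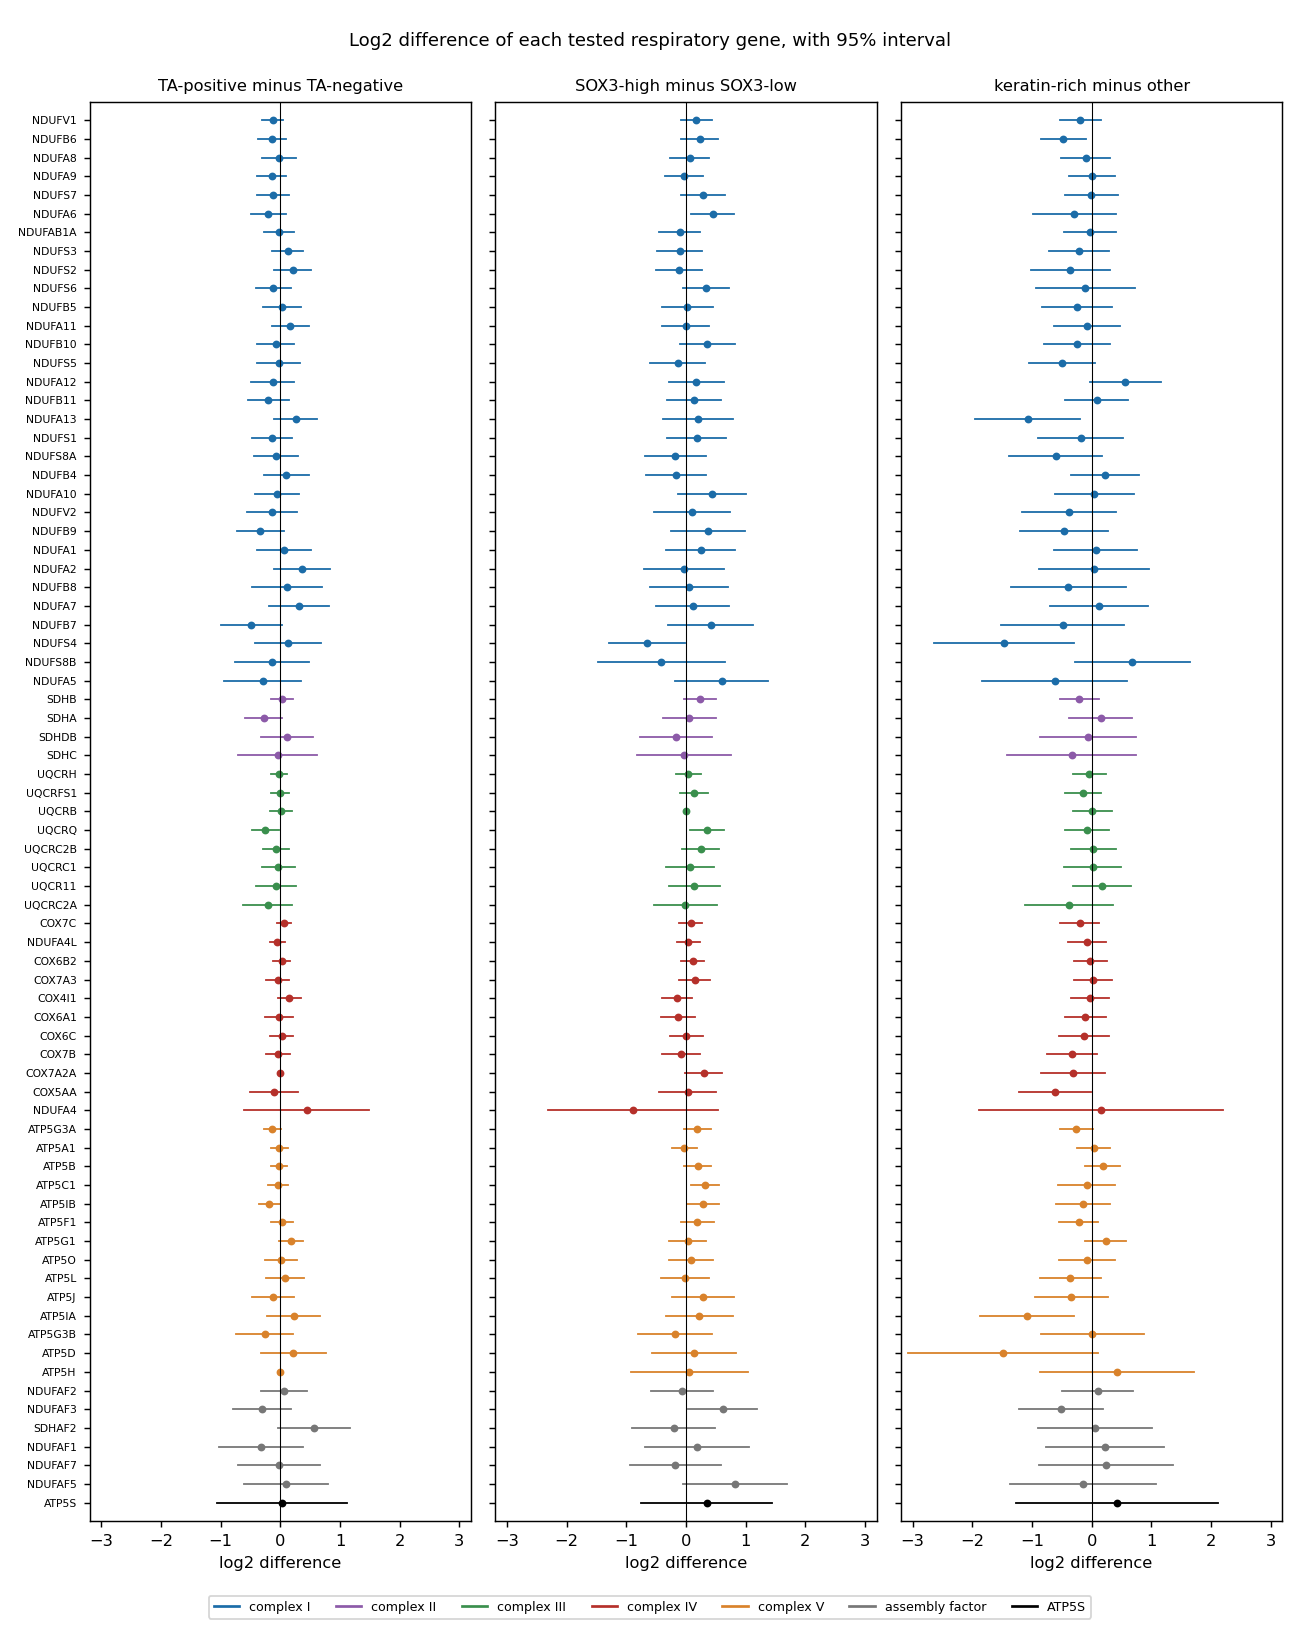
Log2 difference of each of the 75 tested respiratory genes between cell classes, with its 95% interval from edgeR's quasi-likelihood fit, ordered by complex and by level; an interval that could not be computed, where the difference is near 0, is not drawn. Intervals are short for the abundant genes at the head of each complex and widest in the keratin panel.

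Other genes of energy metabolism were listed by function. Over all tested genes, 1.2% were called higher and 0.265% lower for TA, 0.736 and 1.86% for SOX3, and 1.17 and 0.0362% for keratin. At such low shares, few or no calls in short lists say little about those lists. Over the 3 comparisons no gene was called among 7 tested electron carriers and cytochrome c1, 10 regulators of mitochondrial biogenesis, 10 mitochondrial carriers and porins, 7 mitochondrial antioxidants, 60 mitochondrial ribosomal proteins, 20 import genes, 81 cytosolic ribosomal proteins, or the proteasome genes (38 or 39 tested). Among 18 further respiratory assembly factors, HIG1, of a family whose members associate with respiratory complexes in yeast and mammals, was lower in SOX3-high cells. It stood at 3.72, 3.73 and 3.39 against 4.70, 5.82 and 4.25 UMIs per 10000 (log2 difference -0.39 ± 0.10, SE, adjusted p = 0.0479 by edgeR).

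Among the glycolysis genes (19 tested there), PFKFB4L, of the enzymes that set the level of fructose 2,6-bisphosphate, an activator of glycolysis, was higher in SOX3-high cells, at 3.25, 3.02 and 2.45 against 2.46, 1.82 and 1.41 UMIs per 10000 (1.60-fold, adjusted p = 0.00255 by edgeR); 0 of 20 were called in each of the other comparisons. DLD, listed with the citric acid cycle (18 tested), was higher in TA-positive cells (3.42-fold, adjusted p = 0.00209 by edgeR) and lower in SOX3-high cells (4.00-fold). In zebrafish that symbol names deltaD, a Notch ligand, and is also a synonym of the enzyme gene dldh, so the row cannot be counted as an enzyme of the cycle. None of the other 17 genes of that list was called in any of the 3 comparisons.

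Respiratory genes hardly covaried between cells. Among the 61 members with a UMI in at least 20% of the cells of every batch, the mean pairwise Spearman's rho, after regression on detected genes, was 0.015, 0.027 and 0.009 in batches 1, 2 and 3, against 0.007, 0.014 and 0.017 over all genes with the same detection. Pairs within a complex had 0.025, 0.032 and 0.003, and pairs between complexes 0.011, 0.025 and 0.011. Within a complex the mean was above that between complexes in batches 1 and 2 and below it in batch 3. The same measure gave 0.38, 0.44 and 0.37 for the 5 keratin genes, 0.30, 0.29 and 0.36 for 6 margin markers and 0.071, 0.071 and 0.070 for cytosolic ribosomal proteins. In counts this sparse a weak correlation is no finding, and no p is given for correlations across cells.

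**Figure D5:**
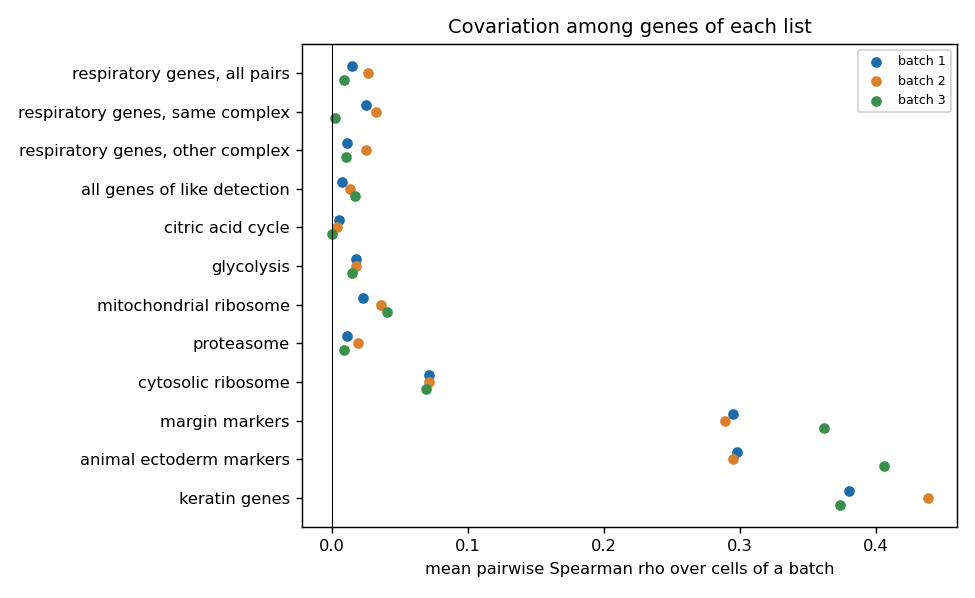
Mean pairwise Spearman's rho over the cells of each batch, after regression on detected genes, for respiratory genes and for other gene lists. The respiratory genes lie below 0.04 beside the average of all genes, while keratin, margin and animal ectoderm genes lie above 0.28.

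Of the 1830 pairs of members, 60.2, 65.2 and 55.6% had a positive rho in batches 1, 2 and 3, and 22.3% in all 3. No share over pairs of all genes is given beside it, so it does not show that pairs of members recur. A mean above 0.2 was found for 1 pair. That pair was NDUFB9, an accessory subunit of complex I, with UQCRC2A of complex III, at 0.06, 0.32 and 0.26 in batches 1, 2 and 3. The members with the highest mean rho with the others were NDUFA13 (0.048), ATP5IA (0.045), ATP5G3A (0.039), NDUFB9 (0.037) and NDUFB8 (0.033), and those with the lowest were NDUFAF2 (-0.009), NDUFA2 (-0.008), NDUFS6 (-0.008), ATP5G1 (-0.005) and ATP5A1 (-0.004). The median was 0.019, against 0.008 for the other 4779 genes with respect to the members. Among the non-members most alike in pattern over the cells of the 3 batches were zgc:110783 (0.065), PSMB7, a proteasome subunit (0.057), ATPIF1A, the inhibitory factor of ATP synthase (0.056), and PNX, a homeobox gene (0.055).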

How the data were processed

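The authors deposited a table of raw UMI counts per gene and well, made with Bowtie on the Zv9 build, per the submitters' processing notes, which give no version. Wells were grouped by experimental batch, per the labels. No count was normalized before deposit. Wells with 2000 or more detected genes were kept, no doublet caller was run, and wells over 5000 genes (39) were left out in an alternative. Levels are UMIs per 10000, as ratios of sums. For tests, counts were summed per class and batch (6 sums, 75 of 80 members in each test) and fitted with edgeR 4.0.16 (quasi-likelihood, TMM, batch as a block because each batch, as the labels give it, holds different cells of both classes) in R 4.3.3, for genes with a UMI in at least 5% of compared cells. P-values were adjusted by Benjamini-Hochberg over all tested genes and called under 0.05. The genes that define a class were left out of its test. Classes were cells with at least 1 TA UMI against none, the highest against the lowest 1 in 3 by SOX3, and the highest 1 in 10 by a mean log2 keratin score against the rest. DESeq2 1.42.0, other filters, scalings and classes, and leaving out each batch were tried. The fit was tested on simulated data. Covariation used log2(1 + UMIs per 10000). P-values set the difference between classes against the spread that remains between the sums after the batch block. edgeR estimates that spread partly from the other genes, and the number of batches limits the precision. Counting error is the floor where UMIs are few.

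Members, lists and classes were chosen with earlier results of these data known. All 80 members matched a gene table of the assembly GRCz12tu by symbol or synonym, which was used for names alone. Genes were named by rule: the 3 highest per complex, those called, the 4 highest and 4 lowest log2 differences with the same direction in 3 batches, the 3 largest batch ratios, copies with a last letter A or B, and the 5 highest and lowest in covariation. Others are said to be chosen after their values were seen. One gene that the rule on covariation names is not reported here.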

Additional observations from a re-analysis of the deposited data

How the results depend on the processing

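No member was called higher in any of the 3 comparisons under any alternative run, and none lower in the TA and SOX3 comparisons. For keratin-rich cells 1 member, NDUFA13, was called lower with no filter on low counts (log2 difference -1.16), and leaving out a batch gave 0 to 1, the 1 (NDUFA13, -1.73) being without batch 2. Without the replicate block 0 members were called in each comparison. Of all tested genes, 0.651 and 0.0241% were then higher and lower for TA, 0.258 and 1.39% for SOX3, and 1.05 and 0% for keratin. With the block these shares were 1.20 and 0.265%, 0.736 and 1.86%, and 1.17 and 0.0362%. Over the alternatives they ran from 0.651 to 1.93 and 0.0241 to 0.520%, 0.227 to 1.18 and 1.25 to 2.36%, and 0.968 to 1.84 and 0 to 0.281%. NDUFAF2 in the SOX3 comparison turned to 0.20 at 3000 detected genes and 0.081 for the highest and lowest 1 in 4, and lay between -0.15 and 0.027 as each batch was left out. In keratin-rich cells NDUFB4 turned to -0.063 at 3000 detected genes, -0.015 without plate 6 and -0.13 with a 2-component mixture, and NDUFAF3 to 0.043 with cells matched on detected genes. The cause of these turns was not tested. Complex III moved from 17.02 to 17.1 at 3000 detected genes, 16.6 with a correction for tag collisions and 16.5 as a mean over cells, beyond its small spread between batches. The mean rho of members moved from 0.017 to 0.030 with no regression and 0.0071 with each cell thinned to 5000 UMIs. Matching on detected genes in the SOX3 comparison returned the same cells. Runs without the near-identical wells, and without plate 6 for TA and SOX3, were added after seeing the data. Differences smaller than a gene's interval were not detectable with 3 batches at this depth.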
